A study of Mus musculus with 6 samples.

Results

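The proximal signalling genes of the T cell receptor were compared between WT and RORγtN275D Th17 cells. They are *Cd3d*, *Cd3e*, *Cd3g*, *Cd247*, *Lck*, *Zap70*, *Lat*, *Lcp2* and *Plcg1*, taken from the table by gene symbol. All 9 have a row among the 16244 genes of the deposited table, and all 9 had a mean of at least 10 normalized reads, the minimum for testing.

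The T cell receptor has no enzyme activity of its own and signals through the CD3δ, CD3ε and CD3γ chains and the ζ chain encoded by *Cd247*, whose cytoplasmic tails carry tyrosine motifs. The Src family kinase LCK phosphorylates these motifs, ZAP-70 docks on them, and ZAP-70 then phosphorylates the adaptors LAT and SLP-76, the product of *Lcp2*. The phosphorylated adaptors hold phospholipase C-γ1 (*Plcg1*), which cleaves a membrane lipid into the messengers that open calcium entry and activate Ras and protein kinase C. In culture, antibody to CD3 sets the same chain of events in motion, and the strength of that signal is known to shape which cytokines a differentiating CD4+ T cell makes.

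Naive CD4+ T cells, with spleen as the labelled tissue, came from WT mice or from knockin mice carrying the N275D substitution in RORγt, the lineage factor of Th17 cells. Both groups were kept for 3 days with anti-CD3 and anti-CD28 on plates coated with anti-hamster IgG, under pathogenic Th17 conditions. By the written protocol these add IL-23 and IL-1β to TGF-β, IL-6, anti-IL-4 and anti-IFN-γ, whereas elsewhere they are given as IL-6, IL-1β and IL-23 alone. There were 3 RNA-seq libraries of each genotype, and the labels give neither age nor zygosity, nor whether libraries came from separate animals or cultures, so the p-values measure the spread between these libraries, which may be technical. The methods list WT mice bought as a C57BL/6NJ stock, and knockin mice on a C57BL/6 background provided by another laboratory. Littermate controls are named, when applicable, for the cell transfer experiments. Which WT mice gave the cells sequenced here is not stated, so genotype and source of the mice cannot be told apart.

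Each library held between 17659035 and 18510878 reads on genes. The deposited values are those reads multiplied by 1 factor per library, and are called normalized reads here. Genotypes were compared with limma on log2(normalized reads + 1) for 11908 genes, with p-values adjusted by the Benjamini-Hochberg method over all of them, and a gene was called at an adjusted p under 0.05. The genotypes differed widely: 50.9% of genes tested were called, 24.7% higher and 26.1% lower in N275D cells, and 3.59% were called at 2-fold or more (325 higher and 102 lower, or 232 and 146 under quantile normalization). The median log2 fold change of all genes tested was -0.0026. With 3 libraries against 3, an exact two-sided permutation test of a single gene cannot go below p = 0.1. WT replicate 3 stood apart, with a spread against the other WT replicates of 2.96 and 3.05 times counting noise, against 1.32 to 1.54 times among the other pairs of a genotype. The cells had the markers of their label: *Cd4* lay between 7575 and 9520 normalized reads per library, and the Th17 cytokine and receptor transcripts *Il17a*, *Il17f*, *Il22*, *Il23r* and *Ccr6* were all present, each called higher in N275D cells. Gene totals do not show the substituted codon.

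Of the 9 genes, 5 fell, 1 rose and 3 were not called in N275D cells. The largest decreases were those of the adaptor genes *Lcp2*, which fell by 33.6%, and *Lat*, which fell by 21.9%. *Cd3e* fell by 14.4%, *Cd247* fell by 11.5% and *Lck* fell by 11.1%. *Plcg1* rose by 11.6%, and *Cd3d*, *Cd3g* and *Zap70* were not called. None reached 2-fold. In these bulk samples, fewer cells of a type and less RNA per cell cannot be told apart. The share called was 66.7%, against 50.9% of all genes tested, and the median log2 fold change of the 9 genes was -0.17. The genotypes did not overlap in 6 of the 9, where 57.7% of all genes tested did not overlap. Without a trend in the prior variance the count of called members dropped to 3 (*Lck*, *Lat* and *Lcp2*).

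**Figure D1:**
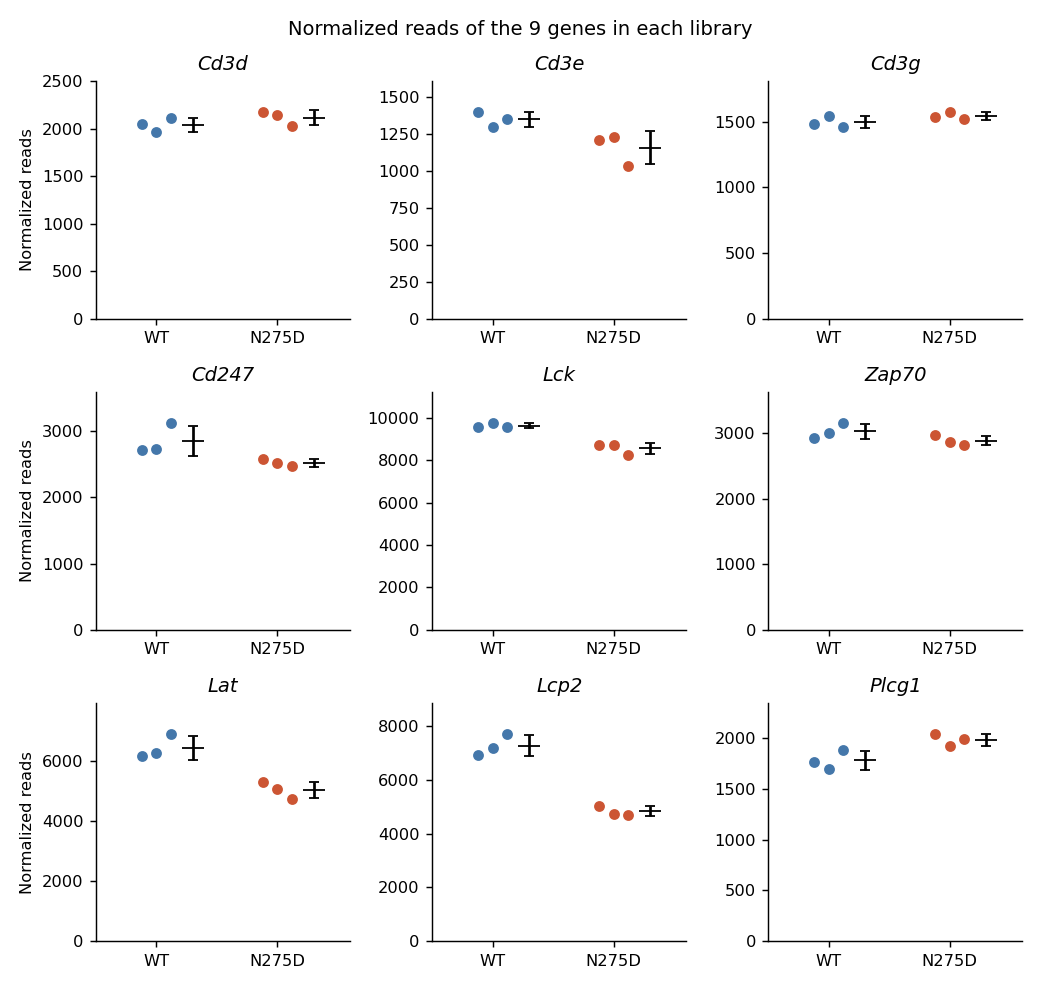
Normalized reads (vertical axes, starting at 0, a scale of its own per gene) of the 9 proximal genes in each of 3 WT (blue) and 3 N275D (red) libraries, with the mean and SD of each genotype as a black bar. *Lcp2* and *Lat* show the widest gaps between genotypes, *Plcg1* is higher in N275D cells, and *Cd3d*, *Cd3g* and *Zap70* overlap.

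*Lcp2* (gene ID 16822, GRCm38 chromosome 11, 34046928 to 34092281) encodes SLP-76, the adaptor that brings phospholipase C-γ1 and VAV1 together. It had 6935, 7192 and 7702 normalized reads in WT replicates 1 to 3 and 5038, 4744 and 4703 in N275D replicates 1 to 3. Every WT library lay well above every N275D library, with means of 7276 ± 390 and 4828 ± 183 (SD, n = 3 each). The log2 change in limma was -0.59 ± 0.04 (SE), at an adjusted p of 1.39e-08, and it stayed between -0.62 and -0.51 over 15 alternative analyses. Among all genes tested, 2.78% had a lower log2 fold change. A long noncoding RNA gene, *4930469K13Rik*, overlaps *Lcp2* over 45354 bases of gene span and has no values of its own here. How reads from the shared span were assigned was not tested.

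*Lat* (gene ID 16797, chromosome 7, 126363827 to 126369705) encodes the membrane adaptor on which the signalling complex is built. It had 6160, 6254 and 6887 normalized reads in WT and 5288, 5047 and 4736 in N275D libraries. The genotypes were again apart, with means of 6434 ± 395 and 5024 ± 277 (SD, n = 3 each). The log2 change in limma was -0.36 ± 0.05 (SE), at an adjusted p of 1.33e-05, with a range of -0.39 to -0.27 over the alternatives.

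*Plcg1* (gene ID 18803, chromosome 2, 160731310 to 160775760), whose enzyme these adaptors recruit, went the other way. It had 1765, 1694 and 1883 normalized reads in WT and 2039, 1922 and 1996 in N275D libraries. The lowest N275D library was just above the highest WT library. Its log2 change in limma was 0.16 ± 0.05 (SE), at an adjusted p of 0.0105. The call was lost without WT replicate 2 (0.12, adjusted p = 0.0556), without N275D replicate 1 (0.14, adjusted p = 0.0577) and without a trend in the prior variance (adjusted p = 0.0557). The 3′ part of *Plcg1* overlaps *Zhx3*, on the opposite strand, over 5314 bases of gene span. *Zhx3* was lower in N275D cells, with 264 ± 12.6 and 186 ± 5.33 normalized reads (SD, n = 3 each), and since the strand setting of the counting is not stated, reads from the shared span may not be told apart.

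Of the 4 genes of the receptor's signalling chains, 2 fell and 2 were not called. *Cd3d* (gene ID 12500, chromosome 9, 44981769 to 44987052) had 2053, 1962 and 2113 normalized reads in WT and 2177, 2142 and 2029 in N275D libraries. *Cd3g* (gene ID 12502, chromosome 9, 44969572 to 44980431) had 1481, 1546 and 1461 in WT and 1531, 1573 and 1519 in N275D libraries. In both, the libraries of the genotypes interleaved, with log2 fold changes of 0.05 (95% confidence interval -0.04 to 0.15, adjusted p = 0.358 from limma) and 0.04 (-0.05 to 0.14, adjusted p = 0.435 from limma).

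*Cd3e* (gene ID 12501, chromosome 9, 44998735 to 45009663), whose chain pairs with CD3δ and with CD3γ, was called lower. It had 1399, 1299 and 1354 normalized reads in WT and 1209, 1233 and 1034 in N275D libraries. No N275D library reached the lowest WT library, and N275D replicate 3 was the lowest of all. The log2 change in limma was -0.22 ± 0.06 (SE), at an adjusted p of 0.00586. Without N275D replicate 3 it was -0.14 (adjusted p = 0.0453), and without a trend in the prior variance the call was lost (adjusted p = 0.0586). The 3 genes lie in a cluster: *Cd3g* and *Cd3d* are transcribed away from each other across a gap of 1338 bases, and *Cd3e*, on the minus strand, lies 11683 bases beyond *Cd3d*.

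*Cd247* (gene ID 12503, chromosome 1, 165779952 to 165871153) encodes the ζ chain, which carries more of the tyrosine motifs than any CD3 chain. It had 2710, 2731 and 3119 normalized reads in WT and 2576, 2517 and 2465 in N275D libraries. The genotypes did not overlap, although WT replicate 3 stood above the other WT libraries. The log2 change in limma was -0.18 ± 0.05 (SE), at an adjusted p of 0.00797, and -0.11 (adjusted p = 0.0106) without WT replicate 3. The call was lost under quantile normalization (-0.10, adjusted p = 0.102) and without a trend in the prior variance (adjusted p = 0.0706). *Cd247* overlaps *Pou2f1* on the opposite strand over 6004 bases, and *Pou2f1* was not called (log2 fold change 0.08, adjusted p = 0.214 from limma). A long noncoding RNA gene without values here, *Gm32999*, overlaps *Cd247* over 16549 bases.

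*Lck* (gene ID 16818, chromosome 4, 129548344 to 129573641) was the most abundant of the 9 in normalized reads. It had 9592, 9758 and 9579 in WT and 8719, 8718 and 8274 in N275D libraries. The WT libraries were close together and all above the N275D libraries. The log2 change in limma was -0.17 ± 0.03 (SE), at an adjusted p of 0.000640, and its call held in each of the 15 alternatives, with adjusted p-values up to 0.0178. *Zap70* (gene ID 22637, chromosome 1, 36761798 to 36782821), the kinase that acts after LCK, had 2938, 3009 and 3158 normalized reads in WT and 2975, 2874 and 2829 in N275D libraries. Here N275D replicate 1 lay above WT replicate 1. The log2 fold change of *Zap70* was -0.07 (95% confidence interval -0.16 to 0.02, adjusted p = 0.174 from limma), and its sign changed under quantile normalization, to 0.0017.

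**Figure D2:**
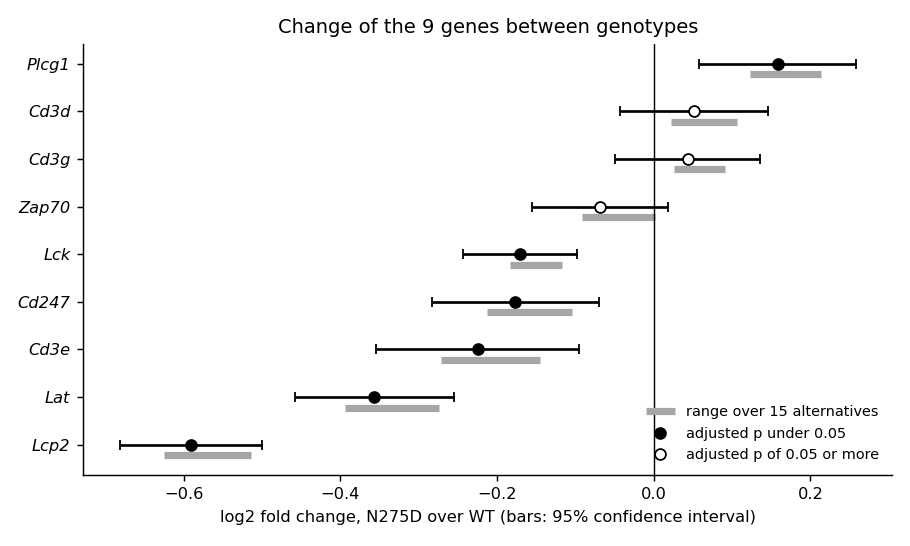
Log2 fold change of N275D over WT cells for each of the 9 genes, with 95% confidence intervals from limma (points, filled where the adjusted p was under 0.05) and the range over 15 alternative analyses (grey bars). *Lcp2* (-0.59) and *Lat* (-0.36) lie farthest below 0 and *Plcg1* (0.16) is the only filled point above it.

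Since a ratio of 2 genes within a library does not depend on the scaling factor of that library, ratios between members were also formed. The pairs were chosen after the values were seen and are given as descriptions. There were 3.93, 4.25 and 4.09 *Lcp2* reads for each *Plcg1* read in the WT libraries and 2.47, 2.47 and 2.36 in the N275D libraries. For *Lat* over *Plcg1* the ratio went from 3.61 ± 0.11 to 2.53 ± 0.14 (SD, n = 3 each). *Lcp2* reads exceeded *Lat* reads in every WT library, at 1.13 ± 0.02 to 1, and were fewer in every N275D library, at 0.96 ± 0.03. Within the CD3 cluster the ratio of *Cd3e* to *Cd3d* went from 0.66 ± 0.02 to 0.55 ± 0.03, and the ratio of the ζ chain gene *Cd247* to *Cd3g* from 1.91 ± 0.20 to 1.63 ± 0.04 (SD, n = 3 each). The ratio of the kinases *Lck* and *Zap70* changed least of the 6 pairs, from 3.18 ± 0.13 to 2.96 ± 0.06. The genotypes all but met in this pair, with a lowest WT ratio of 3.0333 and a highest N275D ratio of 3.0332. They did not overlap in the other 5 pairs either, from which nothing is read, since the pairs were picked on their values.

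**Figure D3:**
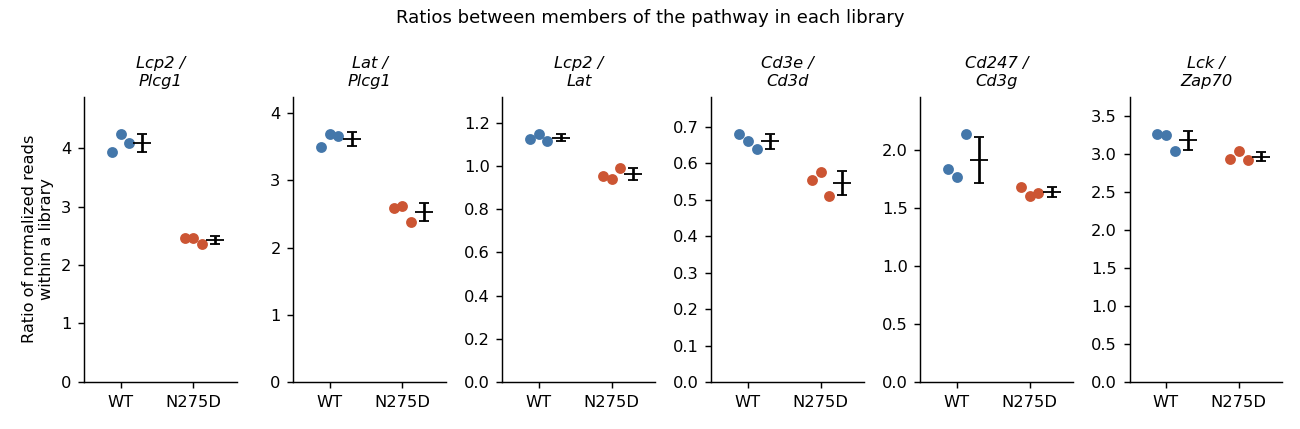
Ratio of normalized reads of 2 members within each library (vertical axes, starting at 0), for 3 WT (blue) and 3 N275D (red) libraries, with mean and SD in black. The N275D libraries lie below the WT libraries in these pairs, which were picked on their values, by most in *Lcp2* over *Plcg1* (4.09 against 2.43).

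Levels were compared between genes as normalized reads per kilobase of the longest principal transcript in GENCODE M21. On that scale *Lat* (5209 ± 320 in WT) and *Lck* (4413 ± 45.9) were the most abundant, *Cd3e* (924 ± 34.1) was the second lowest and *Plcg1* (349 ± 18.7) the lowest (SD, n = 3). In N275D cells *Lat* (4068 ± 224) and *Lck* (3922 ± 117) no longer differed by more than their spread. *Lcp2* went from 1997 ± 107, in the third place, to 1325 ± 50.2, in the fifth, where it could not be separated from *Cd3d* (1309 ± 47.7) and *Zap70* (1289 ± 33.2). The order of the genes between these extremes depended on the transcript length used, since over all annotated exons *Lcp2* went from the third to the fourth place, while *Lat* and *Lck* remained the top pair and *Cd3e* and *Plcg1* the bottom pair.

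The 250 bases before the RefSeq start (GRCm38.p6) are printed for *Lcp2*, which fell most, and for *Plcg1*, which rose. Capitals mark AGGTCA, the core of the element that ROR factors bind, and ACGTG, the core of the element that HIF-1 binds, on either strand.
*Lcp2* (chr11:34046678-34046927, plus strand): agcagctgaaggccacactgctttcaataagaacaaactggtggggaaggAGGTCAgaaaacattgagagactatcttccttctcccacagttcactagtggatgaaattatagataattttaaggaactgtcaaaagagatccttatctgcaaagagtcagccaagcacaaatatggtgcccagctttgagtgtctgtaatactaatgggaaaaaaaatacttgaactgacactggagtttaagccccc
*Plcg1* (chr2:160731060-160731309, plus strand): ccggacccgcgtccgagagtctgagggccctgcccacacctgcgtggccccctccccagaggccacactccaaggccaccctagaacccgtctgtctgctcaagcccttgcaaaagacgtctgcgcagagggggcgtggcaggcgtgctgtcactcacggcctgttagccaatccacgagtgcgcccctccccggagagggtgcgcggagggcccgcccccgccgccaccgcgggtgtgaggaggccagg
The *Lcp2* window held 1 AGGTCA, beginning 200 bases before the start, and no ACGTG, and neither core was in the *Plcg1* window. Windows that are not printed were searched too, some members having several RefSeq starts. AGGTCA was also in 1 of the 3 windows of *Zap70*, which was not called, beginning 243 bases before the start. ACGTG was in the windows of *Lat*, *Cd3e* and *Cd247*. In *Lat* it was on both strands at the same place, as the overlapping palindrome CACGTG, in *Cd3e* it began 51 bases before the start and in *Cd247* 180 bases before it. Neither core was in the windows of *Cd3d*, *Cd3g* or *Lck*. AGGTCA was in 14% and ACGTG in 16.6% of the 32851 windows of the same length before RefSeq starts. GGAA, the core that ETS factors bind, searched on either strand, was in 93.4% of all windows. Among the members it was missing from the *Plcg1* window and from 1 *Zap70* window, and every other window held between 1 match (*Cd247*) and 8 matches (*Zap70*), whether the gene was called or not. These matches describe the letters in the windows and not binding.

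The genes around the members were taken from lists grouped by role. Among receptor and co-receptor chains, 4 genes were analysed, of which 2 were called higher and 1 lower. The share called was 75%, against 50.9% of all genes tested. *Cd4*, the co-receptor that carries LCK, fell from 9143 ± 331 to 7591 ± 26.1 normalized reads, a log2 fold change of -0.27 (adjusted p = 1.16e-05 from limma). *Cd2*, an adhesion receptor, rose from 2785 ± 98.4 to 3894 ± 9.75 (log2 fold change 0.48, adjusted p = 4.60e-08), and the co-stimulatory receptor *Cd28* rose as well (0.15). *Ptprc*, which encodes the phosphatase CD45, was not called (-0.03, adjusted p = 0.577), but was called lower without WT replicate 3 (-0.09, adjusted p = 0.0108) and changed sign under quantile normalization (0.05). The constant regions of the receptor chains themselves were not analysed here.

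Of 5 other kinases of the proximal step, 2 were called higher, 2 lower and 1 was not called. Calls made up 80% of them, against 50.9% of all genes tested. *Tec*, whose kinase acts on phospholipase C-γ1, rose, with 319 ± 12.3 normalized reads in WT and 487 ± 13.1 in N275D cells (log2 fold change 0.61, adjusted p = 1.07e-06 from limma). *Fyn*, the other main Src family kinase of T cells, fell like *Lck* (-0.15, adjusted p = 0.00279). *Map4k1*, whose kinase HPK1 acts on SLP-76, fell by 0.37 on the log2 scale (adjusted p = 2.65e-06).

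Of 15 adaptors and exchange factors, 7 were called higher, 4 lower and 4 were not called, with a median log2 fold change of 0.12. That share of 73.3% stood beside 50.9% of all genes tested. *Themis*, an adaptor of the LAT complex, rose from 3553 ± 243 to 4553 ± 88.1 normalized reads (0.36, adjusted p = 8.37e-06 from limma). The next largest increases were less stable. *Nck2* (0.25) lost its call without WT replicate 1, WT replicate 2 or any 1 N275D replicate, with adjusted p-values of up to 0.105 in limma. *Sos1* (0.23) lost its call without N275D replicate 3 (0.15, adjusted p = 0.0958). *Sh2d2a*, which encodes the adaptor TSAd, fell by 0.39 and *Vav1*, the exchange factor bound by SLP-76, by 0.33 on the log2 scale (adjusted p = 5.69e-06 and 3.48e-06). *Nck1* fell by 0.21, with a call that was lost without WT replicate 1 or N275D replicate 1. *Grap2*, whose adaptor GADS bridges LAT and SLP-76, was not called (-0.12, adjusted p = 0.0938), and was called lower without WT replicate 1 (-0.19, adjusted p = 0.00864). Without N275D replicate 1 the number of calls in the list was 7.

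Of 13 genes that act after phospholipase C-γ1, 3 were called higher, 5 lower and 5 were not called, with a median of -0.04. The share called was 61.5%, against 50.9% of all genes tested. The plasma membrane calcium channel gene *Orai1* fell most, from 952 ± 40.3 to 662 ± 35.5 normalized reads (log2 fold change -0.52, adjusted p = 1.36e-06 from limma), and *Orai2* fell as well (-0.20). The inositol trisphosphate receptor genes *Itpr2* (0.29) and *Itpr3* (0.15) and the Ras activator *Rasgrp1* (0.20) rose. Leaving out 1 library ended the call of *Orai2* (WT replicate 1), *Itpr3* (N275D replicate 2) and *Rasgrp1* (N275D replicate 1). Without N275D replicate 1, or without a trend in the prior variance, 5 of the 13 were called.

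Of 20 genes that restrain the receptor, 6 were called higher, 6 lower and 8 were not called, with a median of 0.03. Calls made up 60% of the list, against 50.9% of all genes tested. *Cblb*, a ubiquitin ligase that limits T cell activation, was the single gene of the list called at 2-fold. It had 841, 847 and 907 normalized reads in WT and 1829, 1814 and 1928 in N275D libraries, with a log2 change of 1.10 ± 0.05 (SE), at an adjusted p of 3.25e-11 in limma. Other restraining genes are named here after their values were seen. The phosphatase genes *Ptpn22* (0.40) and *Ptpn2* (0.29) rose, and *Ptpn6*, which encodes SHP-1, fell (-0.26). *Csk*, the kinase that holds LCK inactive, fell with *Lck*, from 4067 ± 322 to 3314 ± 85.0 normalized reads (-0.29, adjusted p = 0.000129). The surface receptors *Cd5* (-0.30) and *Cd6* (-0.33) also fell.

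Of 10 genes that the receptor induces, 4 were called higher and 6 lower, and none was left uncalled. Among all genes tested, 50.9% were called. However, *Irf4* (0.11) lost its call without WT replicate 1, N275D replicate 2 or N275D replicate 3. *Tnfrsf9*, which encodes the co-stimulatory receptor 4-1BB, had the largest change, with 673 ± 45.7 normalized reads in WT and 2568 ± 82.8 in N275D cells (log2 fold change 1.93, adjusted p = 1.42e-13 from limma). *Nr4a1* (-0.84), *Pdcd1* (-0.80) and *Cd40lg* (-0.62) fell, as did *Ctla4* (-0.24), *Tnfrsf4* (-0.21) and *Cd69* (-0.20), while *Icos* (0.44) and *Il2ra* (0.30) rose. The list had no common direction.

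**Figure D4:**
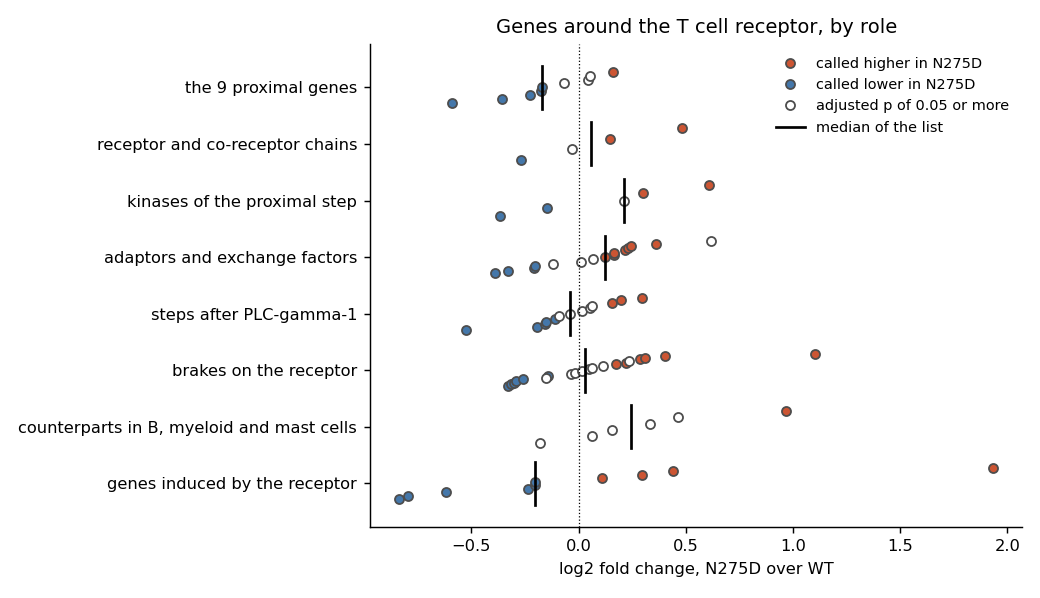
Log2 fold change of N275D over WT cells (horizontal axis) of every gene tested in 8 lists grouped by role (rows), filled where limma called it higher (red) or lower (blue) and open where it did not, with the median of each list as a black line. Calls in both directions stand in 7 of the 8 lists, and the 9 proximal genes have a median of -0.17.

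The genes that B, myeloid and mast cells use in place of the members were low. *Syk*, the counterpart of *Zap70*, had 96.0 ± 9.84 normalized reads in WT and 107 ± 6.39 in N275D cells, and *Plcg2*, the counterpart of *Plcg1*, had 386 ± 35.9 and 341 ± 22.2 (SD, n = 3 each). Neither was called, although *Plcg2* was called lower without WT replicate 1 (-0.26, adjusted p = 0.0155 in limma) and under quantile normalization (-0.23, adjusted p = 0.0291). Of 6 counterparts tested, 1 was called, *Blnk*, the B cell relative of *Lcp2*, with 12.6 ± 3.11 and 25.3 ± 2.70 normalized reads (log2 fold change 0.97, adjusted p = 0.00558 from limma). The 6 B cell markers summed to 163 to 173 normalized reads in a WT library and 241 to 308 in an N275D library, against sums of 35032 to 37254 and 29586 to 31552 for the 9 members. Of the B cell markers 5 were tested and 4 called higher, while *Ms4a1*, a defining marker too low to be tested, was at 0 in 2 WT libraries and 1.01 in the other, and at 3.99, 4.01 and 9.88 in the N275D libraries. Among those 4, *Pax5* (0.42, adjusted p = 0.0228 from limma) lost its call in 6 of the 14 alternatives that tested it. Quantile normalization was among them (0.25, adjusted p = 0.172). The 6 myeloid markers summed to 89.8 to 108 and 105 to 130, the 5 CD8 T and natural killer markers analysed to 231 to 263 and 335 to 373, and the 2 γδ T cell markers analysed to 31.3 to 41.3 and 58.3 to 65.9. These lists were called with 1, 3 and 2 genes higher and 1, 0 and 0 lower, or 66.7%, 75% and 100% of the genes tested in each. The share was 16.7% of the counterparts, 80% of the B cell markers and 50.9% of all genes tested. The myeloid marker called lower was *Adgre1*, with 22.6 ± 3.22 and 6.64 ± 3.05 normalized reads (log2 fold change -1.70, adjusted p = 0.000512 from limma). The myeloid marker called higher was *Cd14*, with 11.3 ± 3.56 and 22.9 ± 0.96 (0.99, adjusted p = 0.00673 from limma). *Csf1r*, not tested, had 2.02, 1.01 and 0 normalized reads in the WT and 3.99, 3.01 and 1.98 in the N275D libraries. *Klrb1c* was at 0 in 1 WT and all 3 N275D libraries. *Cd8a* was not called, with 32.6 ± 6.70 and 27.6 ± 2.67 normalized reads (log2 fold change -0.22, adjusted p = 0.401 from limma). The calls in its list were those of *Cd8b1* (0.58), *Klrk1* (0.72) and *Eomes* (0.69). The call of the γδ T cell marker *Sox13* (0.64, adjusted p = 0.0216 from limma) was lost in 5 of the 14 alternatives that tested it. The part of such other cells in the changes of the members was not tested.

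The genes outside these lists whose pattern over the 6 libraries was most like that of *Lcp2*, by the root mean square difference of log2 values centred on the WT mean, were *Camkk2* (difference 0.023, log2 fold change -0.61), *Ptp4a3* (0.031, -0.57) and *Ggct* (0.035, -0.59). *Ptp4a3* encodes a phosphatase and *Camkk2* a kinase activated by calcium and calmodulin. *Camkk2* had 1145, 1170 and 1235 normalized reads in WT and 794, 768 and 757 in N275D libraries.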

How the data were processed

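RNA-seq libraries of 3 WT and 3 N275D Th17 cell samples were assigned to genotype from their labels. The authors used STAR on mm10 for alignment of trimmed reads, featureCounts for counting and DESeq2 for their own comparison; versions are not given in the sources used here. The methods name strand-specific DNBSEQ libraries and the labels another directional poly-A kit. The deposited signal values equal whole reads times a single factor for each library (100% of values whole multiples within 1e-06). The authors' deposited log2 fold changes, q-values and rounded group averages were not used, and 0 columns of per-sample values were left out.

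Genes with a mean of at least 10 were fitted with limma (version 3.58.1, R 4.3.3) on log2(normalized reads + 1), with a trended prior of 12.0 degrees of freedom and no block. On this scale fold changes of low genes are understated. Confidence intervals use the moderated standard error. The script was tested on simulated data. The lowest value of any member in a library was 1034 normalized reads. Named genes are all members, list members called at 2-fold or otherwise the 3 largest changes in each direction, genes that overlap or adjoin a member, and the 3 patterns nearest to the largest change. Also named, outside this rule, are the other genes that the receptor induces, further restraining genes, and some other list genes and markers. The members, the lists and the named genes were chosen with earlier results of these data known. Some list genes that the rule would name are not reported here. Coordinates and promoters are from RefSeq GRCm38.p6, which is the build mm10, matched by gene ID for 9 of 9 members; transcript lengths and strands are from GENCODE M21.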

Additional observations from a re-analysis of the deposited data

How the results depend on the processing

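Over 15 alternatives (pseudocounts of 0.1 and 10, other filters, TMM or quantile scaling, no trend in the prior, weighted libraries, a replicate block, and each library left out), *Lck*, *Lat* and *Lcp2* kept their direction and call. Without a trend 3 of the 9 members and 5 of 13 genes after phospholipase C-γ1 were called. *Zap70* reversed under quantile normalization (0.0017). Leaving out 1 library gave 5 to 6 called members, 7 to 10 adaptors, 5 to 7 genes after phospholipase C-γ1 and 1 to 2 counterparts of B, myeloid and mast cells. The counterparts called were 2 with a pseudocount of 10, without a filter, with TMM or quantile scaling, without a trend and with library weights, and 0 with a mean of at least 100, where fewer genes were tested. Leaving out 1 library gave 5158 to 6398 genes called in all and 413 to 456 at 2-fold. Genes called at 2-fold, 427 in all, were 259 with a pseudocount of 10, which shrinks low genes, 703 without a filter and 162 with a mean of at least 100. Quantile normalization moved the calls at 2-fold from 325 higher and 102 lower to 232 and 146. The cause was not tested for the other shifts. With the replicate number as a block, 6 members and 5727 of all genes were called, and no call of a member changed. Same-numbered libraries did not deviate together (correlations of -0.046, 0.041 and -0.083). Whether they shared a day or batch cannot be told from such values, and the labels do not state it. edgeR and DESeq2 on recovered reads were not run.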

Other observations

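Tested genes that adjoin or overlap the members on the chromosome had values of their own. *Top1*, next to *Plcg1*, fell from 5922 ± 320 to 4237 ± 52.5 normalized reads (SD, n = 3 each; log2 fold change -0.48, adjusted p = 9.86e-08 from limma), and *Zhx3*, which overlaps the same gene, fell by 0.50 on the log2 scale, while *Plcg1* between them rose. *Tmem131*, next to *Zap70*, fell (-0.28, adjusted p = 9.71e-06 from limma), and *Spns1*, 355 bases from *Lat*, fell (-0.18, adjusted p = 0.00450 from limma). *Mpzl2*, next to *Cd3e*, fell (-0.48, adjusted p = 0.0182 from limma), as did *Eif3i*, on one side of *Lck* (-0.11, adjusted p = 0.0326 from limma), whereas *Hdac1*, on the other side (0.01), was not called. *Ube4a*, next to *Cd3g* (-0.05), *Creg1*, next to *Cd247* (-0.10), and *Sbk1*, next to *Lat* (0.04), were not called.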
